A study of Homo sapiens with 4 samples.

Results

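Expression of *GLI1* and 7 other core genes of the Hedgehog pathway was examined in A549 cells, an established human lung adenocarcinoma cell line, after transfection of either strand of pre-*miR-486*. The 8 genes were the ligand *SHH*, the ligand-binding inhibitors *PTCH1* and *HHIP*, the signal transducer *SMO*, the cytosolic inhibitor *SUFU* and the transcription factors *GLI1*, *GLI2* and *GLI3*. *GLI1* was chosen from these same arrays, because it showed the largest fall after *miR-486-5p*, and its pathway was then taken with it. Its own differences are therefore given as a description with no test. The members are 8 of 22439 genes with a matched probe, and 14 of 31104 matched probes belong to them.

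There was 1 array of *miR-486-5p*-transfected cells, 1 of *miR-486-3p*-transfected cells and 2 of mock cells, which had the transfection reagent without a miRNA. The 4 arrays shared 1 slide and 1 scan, and cells of all groups were grown in the same medium and transfected by the same lipid method. Whether the mock arrays came from separate cultures was not given in the sources used here, so every p-value measures only the spread between these arrays, which may be technical.

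Hedgehog ligands bind Patched-1, the product of *PTCH1*, and thereby release Smoothened, the product of *SMO*, which then acts at the primary cilium. Smoothened counters Suppressor of fused and protein kinase A, which otherwise hold the GLI proteins back or lead to their cleavage into repressors. *GLI2* and *GLI3* carry the first response. *GLI1* is an activator whose own transcription is a standard readout of the pathway, as is that of *PTCH1* and *HHIP*, which feed back on the ligand. In the developing lung, epithelial *SHH* signals to the mesenchyme during branching.

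The consensus binding site of the GLI proteins is shown here because *PTCH1* is, like *GLI1*, a direct GLI target, and the values of both genes are set side by side later. The letters GACCACCCA, or TGGGTGGTC on the other strand, were searched in the RefSeq promoter windows (GRCh38.p14), which run from 250 bases before to 50 bases after each start. They occurred in 83 of 35116 windows, or 0.236%. Of the members, 6 had a window (11 windows in all), and the letters stood in 1 window, one of the 5 of *PTCH1*. The match is a description of these letters and was not measured as a bound site. The following stretch of 129 bases lies upstream of that start on the minus strand at chr9:95509370-95509498. The capitals mark the motif, which ends 163 bases before the start.
*PTCH1* promoter stretch: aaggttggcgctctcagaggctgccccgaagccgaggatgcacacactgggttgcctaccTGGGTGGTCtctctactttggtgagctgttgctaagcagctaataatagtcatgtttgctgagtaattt

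On each array, the signal is the intensity of the Cy3-labeled RNA at a probe after background correction by the scanner software, and a level is the log2 of this signal minus the 75th percentile of the array. A difference is the level on a transfected array minus the mean of both mock arrays. The scanner software called 30693 to 31516 of 58201 probes well above background on an array, and the lowest such signals were 4.28 to 4.43. Over 28248 probes that passed this mark on every array, the SD of the log2 difference was 0.200 between the mock arrays, 0.522 between *miR-486-5p* and mock, and 0.976 between *miR-486-3p* and mock. With so few arrays, their number sets the precision.

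*GLI1* was lower on both transfected arrays than on either mock array, and by far the lower of the transfected arrays was that of *miR-486-5p*. Its single probe gave signals of 196 on mock 1 and 157 on mock 2, against 10.4 with *miR-486-5p* and 55.9 with *miR-486-3p*. The errors that the scanner software lists for these signals were 19.6, 15.8, 1.42 and 5.68. Each of these signals was well above background. The groups did not overlap, which is common with 1 array of each strand. Over all genes in use, 15.9% lay below both mock arrays and more than 0.5 below their log2 mean after *miR-486-5p*. After *miR-486-3p* this share was 27.2%. In RNA of a whole culture, fewer cells expressing a gene and less of its RNA per cell cannot be told apart.

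On the log2 scale, the *GLI1* level was 0.78 on mock 1, 0.46 on mock 2, −0.74 with *miR-486-3p* and −3.33 with *miR-486-5p*. The mock arrays had an SD of 0.225 (n = 2). The level after *miR-486-5p* stood at 6.46% of the mock mean, a log2 difference of −3.95, and that after *miR-486-3p* at 39.0%, a difference of −1.36. In the order of the 4 levels, the neighboring mock arrays were 0.32 apart. The *miR-486-3p* array lay 1.20 below mock 2, and the *miR-486-5p* array lay a further 2.59 below the *miR-486-3p* array.

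Among 14369 genes with every usable probe well above background on each array, *GLI1* had the lowest difference after *miR-486-5p*, which is the value it was chosen on. The next was *DDIT4*, an inhibitor of mTOR signaling, at −3.06. After *miR-486-3p*, *GLI1* ranked 1306 from the bottom of the same genes. The size of the *GLI1* difference depended on how background was treated. A normal-exponential background correction gave −1.66 with *miR-486-5p* and −0.76 with *miR-486-3p*. The direction was the same for both strands under each of the 10 alternatives tried, but several of these could not have changed it. With a single probe well above background on every array, the choices of filter and probe returned the same value. Leaving out a mock array could not reverse a level that lay below each of them. The authors' deposited log2 values gave −3.91 and −1.41.

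**Figure D1:**
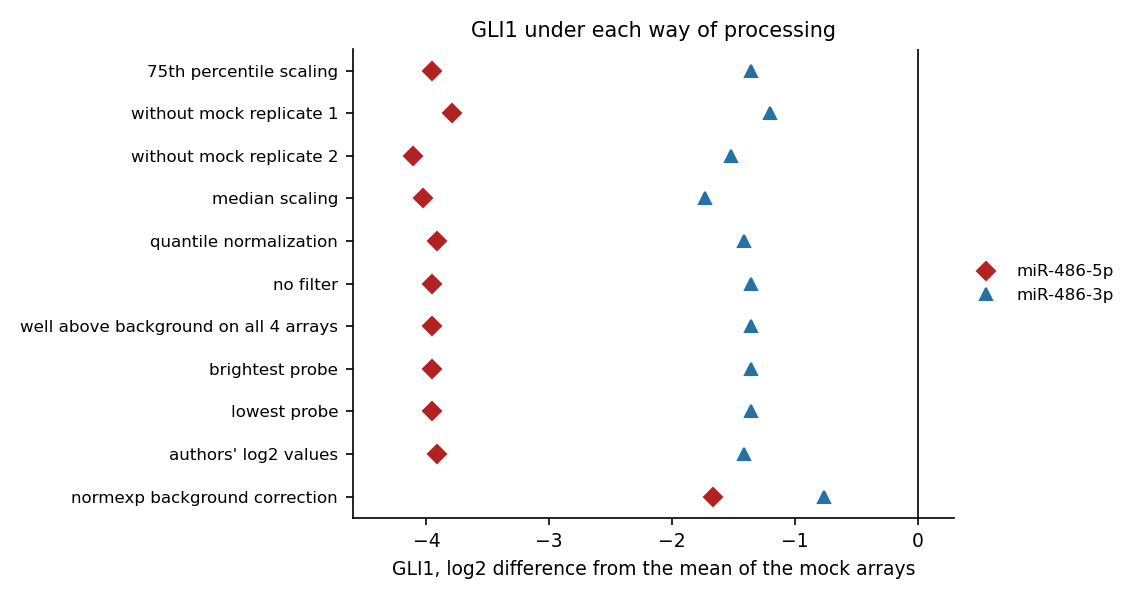
The log2 difference of *GLI1* from the mean of the mock arrays (horizontal axis) under each way of processing (vertical axis), with diamonds for *miR-486-5p* and triangles for *miR-486-3p*. All points lie below 0, and the normal-exponential background correction moves them to −1.66 and −0.76.

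Of the 7 members in use, 2 were lower than both mock arrays by more than 0.5 on the log2 scale after each strand, *GLI1* and *SMO*, and none was higher. Over all genes in use, 15.9% were lower and 13.8% higher by this limit after *miR-486-5p*, and 27.2% and 30.4% after *miR-486-3p*. The median difference of the 7 members was −0.31 with *miR-486-5p* and 0.01 with *miR-486-3p*, beside 0.03 and 0.06 over all genes. A probe was in use for a strand where it was well above background on that array or on both mock arrays, so *SHH* had none. Only 6 members, with 8 probes, were well above background on all 4 arrays. Because *GLI1* led to the choice of the list, nothing about the list is drawn from these counts.

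**Figure D2:**
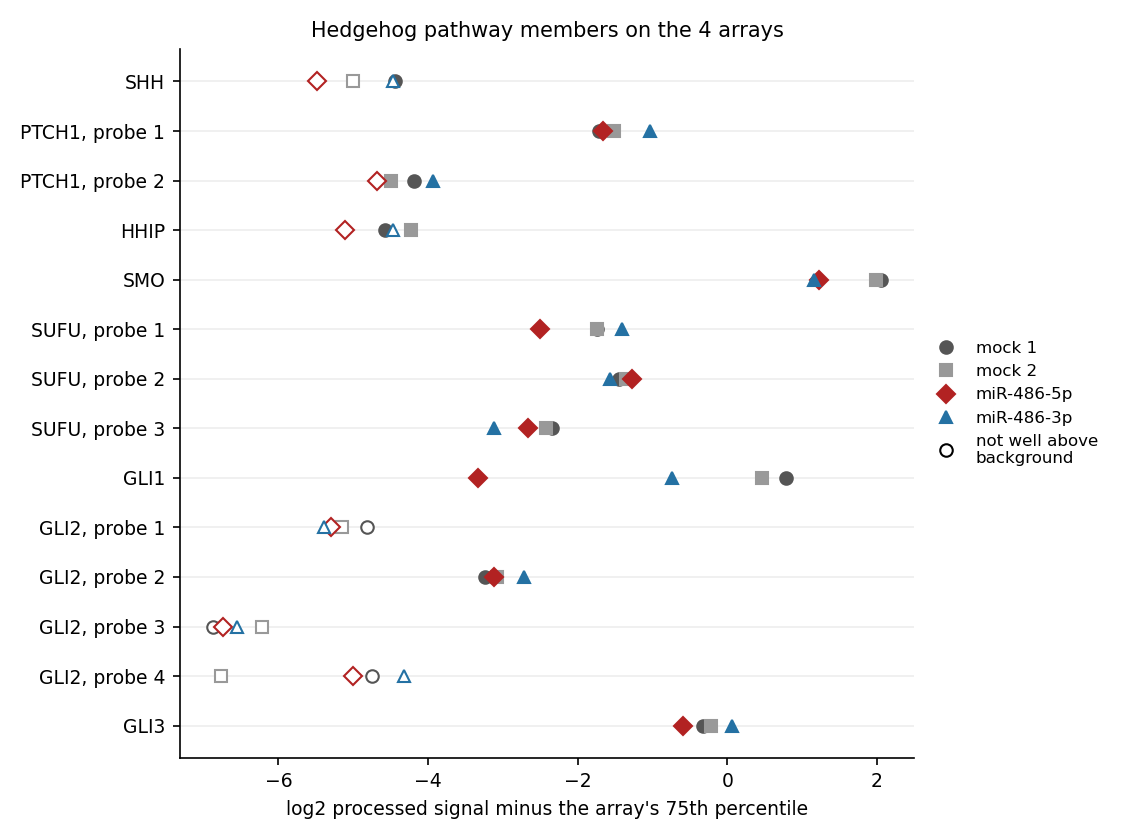
Level of every probe of the 8 members on the 4 arrays, as log2 processed signal minus the 75th percentile of the array (horizontal axis). Each row is 1 probe, and an open symbol is not well above background. *GLI1* and *SMO* lie below both mock arrays, and more than 0.5 below their mean, after both strands. *GLI3* lies below both after *miR-486-5p* (−0.32) and above both after *miR-486-3p* (0.34). After *miR-486-3p*, the usable *GLI2* probe (0.44) and both *PTCH1* probes (0.58 and 0.41) also lie above both. The *SUFU* probes disagree, and *SHH* and *HHIP* are near background.

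*SHH*, the ligand, was near background. Its signal was 5.26 on mock 1, where it was well above background, and 3.58 on mock 2, 2.35 with *miR-486-5p* and 4.20 with *miR-486-3p*, where it was not. No difference is given for it.

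*PTCH1*, the receptor that restrains *SMO*, did not follow *GLI1*. Its brighter probe gave 34.7 and 39.9 on mock 1 and mock 2, 33.2 with *miR-486-5p* and 45.5 with *miR-486-3p*. On the scaled level, the former lay between the mock arrays and the latter above both. The dimmer probe gave 6.25 and 5.08 on the mock arrays and 6.09 after *miR-486-3p*, and was not well above background after *miR-486-5p* (4.08). Averaged over both probes, with the dim value set to the lowest signal well above background, the differences of *PTCH1* were −0.15 and 0.50. After *miR-486-3p*, the brighter probe had a difference of 0.58 (SE 0.136, limma adjusted p = 0.0525). Over 8 settings this adjusted p ranged from 0.000185 to 0.274.

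*HHIP*, which encodes a membrane protein that binds the ligand, was just above background in mock cells, with signals of 4.77 and 6.10. It was not well above background after *miR-486-5p* (3.04) or *miR-486-3p* (4.21). The floor set by the lowest signal well above background gives a *miR-486-5p* level at least 1.15-fold lower than mock. No fold is given for *miR-486-3p*, where this floor lies at the mock mean.

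*SMO*, which transmits the signal past Patched-1, had signals of 473 and 453 on mock 1 and mock 2, 245 with *miR-486-5p* and 207 with *miR-486-3p*. Both transfected arrays lay below both mock arrays. The levels were 57.8% and 54.9% of the mock mean, which are log2 differences of −0.79 and −0.87. After *miR-486-3p*, *SMO* fell (SE 0.0937, limma adjusted p = 0.0149), and this call was made under all 8 settings of the limma fit, with adjusted p from 5.81e-26 to 0.0352. The difference between the strands was −0.07, with a 95% interval of −0.44 to 0.29 (limma), and a difference of the strands within these bounds could not be detected.

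*SUFU*, the cytosolic inhibitor of the GLI proteins, had 3 probes that disagreed. The first gave 34.1 on both mock arrays, 18.4 with *miR-486-5p* and 35.0 with *miR-486-3p*. The second gave 42.0 and 44.5, then 43.3 and 31.3 in the same order. The last, which is listed under another transcript, gave 22.6 and 21.4, then 16.5 and 10.7. The first was thus lowest after *miR-486-5p*, and the other two were lowest after *miR-486-3p*.

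The mean *SUFU* differences were −0.31 and −0.19. After *miR-486-3p*, the last *SUFU* probe fell by 0.74 (SE 0.0963, limma adjusted p = 0.0196). The fall was called under 7 of 8 settings, with adjusted p from 0.00612 to 0.525, and under the normal-exponential correction it was −0.05. The first probe was higher after *miR-486-3p* than after *miR-486-5p* by 1.10 (SE 0.101, limma adjusted p = 0.0158), and this was called under all 8 settings, with adjusted p from 2.01e-05 to 0.0402. The other probes went the opposite way between the strands, at −0.30 and −0.45, and the last one was called lower under 4 of 8 settings, with adjusted p from 0.0271 to 0.869. The mean over the 3 probes was 0.12.

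*GLI2*, the main activator at the start of the response, had 4 probes, of which 3 were not well above background on any array. The remaining probe gave 12.1 and 13.5 on mock 1 and mock 2, 12.1 with *miR-486-5p* and 14.1 with *miR-486-3p*. The *miR-486-5p* signal lay within the range of the mock signals. The differences were 0.05 and 0.44, the second with a limma adjusted p of 0.0689 (0.00996 to 0.695 over 8 settings).

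*GLI3*, which is cleaved into the main repressor when the pathway is silent, gave 91.1 and 98.5 on mock 1 and mock 2, 69.4 with *miR-486-5p* and 97.7 with *miR-486-3p*. Its differences were −0.32 and 0.34, and the latter was −0.03 when arrays were scaled on their medians. *GLI3* was higher after *miR-486-3p* than after *miR-486-5p* by 0.66 (SE 0.121, limma adjusted p = 0.0392). That call was made under 5 of 8 settings, with adjusted p from 5.25e-05 to 0.116, and was lost with median scaling, without a filter on dim probes and with the authors' values.

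Of the 6 members other than *GLI1* that limma tested, 2 fell after *miR-486-3p* (*SMO* and *SUFU*) and 0 rose. limma called 31.6% of all genes lower and 31.9% higher in that comparison, so this share of members is close to the background. Between the strands, 2 of the 6 were called higher after *miR-486-3p* (*GLI3*, and *SUFU* on 1 of its 3 probes, with the other probes lower), beside 27.3% of all genes lower and 26.6% higher. These limma calls rest on the spread between the mock arrays, the only residual degree of freedom, and assume that each transfected array varies as these do.

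The wider pathway was described with 107 further genes in 5 lists taken from general knowledge, for ligand production, receptors, regulators of the GLI proteins, the primary cilium and reported target genes. Together with the members, 110 of 115 genes had a probe. After *miR-486-5p*, 14 of 94 genes in use were lower and 11 higher by the limit of 0.5, shares near the background, and the median was −0.03. Of the 91 genes outside the members that limma tested, 5 were called lower and 2 higher, beside 6.6% and 3.55% of all genes. After *miR-486-3p*, 23 of 98 were lower and 45 higher (23.5% and 45.9%, beside 27.2% and 30.4% of all genes), with a median of 0.44. Outside the members limma called 22 of 91 lower and 47 higher, beside 31.6% and 31.9% of all genes. The split by the limit depended on the scaling. With median scaling, 33 were lower and 30 higher, while the median over all genes moved from 0.06 to −0.32 and the shares of all genes to 41.7% lower and 17.8% higher. That scaling lowers the *miR-486-3p* differences by 0.37. Of the 23 listed genes chosen by size, named in what follows and called by limma after *miR-486-3p*, 20 kept their call under it, and *DISP1*, *CDON* and *MOSMO* lost it.

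**Figure D3:**
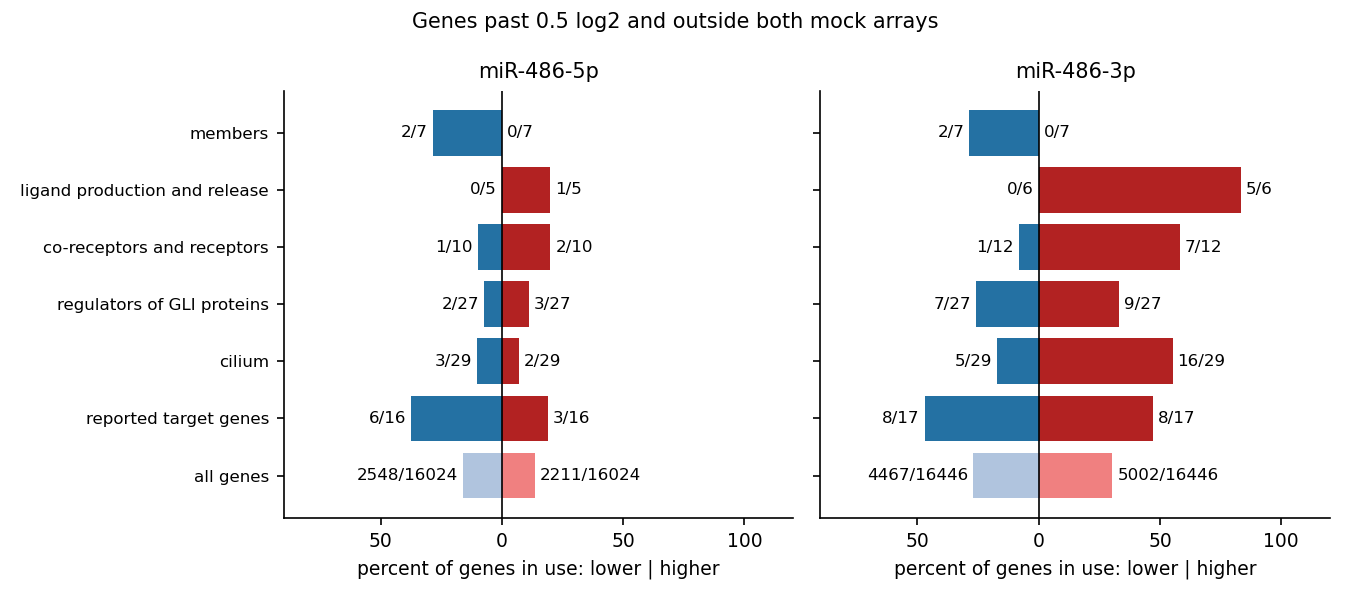
Share of the genes in use in each list (bars, percent) that lay more than 0.5 below (left) or above (right) the mean of the mock arrays on the log2 scale and outside both of them, for each strand. The fractions give the counts. After *miR-486-3p*, 16 of 29 cilium genes and 5 of 6 ligand genes were higher, beside 30.4% of all genes.

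Of 6 genes for making and releasing ligand in use after *miR-486-3p*, 5 were above the limit, beside 30.4% of all genes, and limma called 5 higher, beside 31.9%. The list median was 1.12 (0.75 with median scaling). Of the 5, *DHH* and *SCUBE2* were in use only through the array on which they were high (*DHH* was well above background on neither mock array, *SCUBE2* on 1), and *SCUBE1* was at −0.27. *IHH*, which encodes the Indian hedgehog ligand, had signals of 5.04 and 6.68 on mock 1 and mock 2, 6.35 with *miR-486-5p* and 34.4 with *miR-486-3p*. It rose after *miR-486-3p* by 2.86 (limma adjusted p = 0.0104) and differed by 0.26 after *miR-486-5p*. *DISP1*, which releases the lipid-bearing ligand from the cell, rose by 1.19, and *HHAT*, which adds palmitate to it, by 1.06. After *miR-486-5p* these were at 0.22 and −0.13. When each probe had to be well above background on every array, 3 ligand genes were above the limit after *miR-486-3p*. After *miR-486-5p*, 1 of 5 ligand genes in use was above the limit and 0 below, beside 13.8% and 15.9% of all genes. This was *SCUBE2*, a secreted carrier of the ligand, at 1.65, and it was at 2.83 after *miR-486-3p*. It is named for these values, since its probe was not well above background on 1 of the mock arrays.

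Of 12 receptors and co-receptors in use after *miR-486-3p*, 7 were above the limit and 1 below, beside 30.4% and 27.2% of all genes. With median scaling these were 2 and 2, beside 17.8% and 41.7%. limma called 6 higher and 1 lower, beside 31.9% and 31.6%. Of the 7, *BOC* and *GAS1* were well above background on neither mock array and in use only through the *miR-486-3p* array. The co-receptor *CDON* rose by 0.55, and *MOSMO*, which acts in a complex that lowers the amount of Smoothened at the cell surface, by 0.86. Their differences after *miR-486-5p* were −0.04 and −0.01. *GPR161*, a ciliary receptor that keeps protein kinase A active, had a mean difference of −0.59 with *miR-486-5p* and 0.88 with *miR-486-3p*. Its 2 probes disagreed after *miR-486-5p*, at 0.12 and −1.29, and limma called the second one (adjusted p = 0.0480), a call lost without a filter and with the authors' values (8.86e-06 to 0.0940 over 8 settings).

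Regulators of the GLI proteins had shares close to those of all genes. After *miR-486-3p*, 9 of 27 were above the limit and 7 below (33.3% and 25.9%, beside 30.4% and 27.2% of all genes), and limma called 11 higher and 8 lower, beside 31.9% and 31.6%. After *miR-486-5p*, 3 were above the limit and 2 below (11.1% and 7.41%, beside 13.8% and 15.9% of all genes), with *STK36* at −0.68 and *CSNK1D* at 0.55 among them. limma called 0 of these regulators, beside 3.55% of all genes higher and 6.6% lower. *SAP18*, a corepressor subunit that binds *SUFU*, rose after *miR-486-3p* from signals of 30.1 and 32.3 on the mock arrays to 156, by 2.62 on the log2 scale (limma adjusted p = 0.00764). The kinase gene *STK36* rose by 1.55, *BTRC*, which encodes a ubiquitin ligase subunit acting on GLI proteins, by 1.47, and *PRKAR1A*, the regulatory subunit of protein kinase A, by 1.23. *CSNK1D*, a casein kinase, and *KIF7*, the ciliary kinesin that binds GLI proteins, rose by 0.98 and 0.94. After *miR-486-5p*, *SAP18* was at −0.02, *BTRC* and *PRKAR1A* at 0.37 each and *KIF7* at 0.08.

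Cilium genes formed the largest block of higher genes after *miR-486-3p* by count. Of 29 in use, 16 were above the limit and 5 below (55.2% and 17.2%, beside 30.4% and 27.2% of all genes), and the median was 0.67. limma called 17 higher and 5 lower, beside 31.9% and 31.6%. With median scaling, 12 were above and 7 below (41.4% and 24.1%, beside 17.8% and 41.7%), with a median of 0.29. Subunits of the intraflagellar transport machinery, which carries cargo along the cilium, went both ways. The largest differences were rises, with *IFT20* at 1.84, *IFT22* at 1.71, *IFT172* at 1.59, *IFT43* at 1.51 and *IFT88* at 1.25, whereas *IFT46*, *WDR35* and *IFT122* fell by 0.98, 0.61 and 0.51. *IFT172*, for example, had signals of 603 and 566 in mock cells, 409 with *miR-486-5p* and 1432 with *miR-486-3p*. After *miR-486-5p*, the 5 genes that led the rise lay between −0.43 (*IFT22*) and 0.53 (*IFT20*), and the list had 3 genes below the limit and 2 above. limma called 2 cilium genes lower after *miR-486-5p*, *RPGRIP1L* and *TMEM231*, each on a probe not well above background on that array, and 1 higher, *IFT27*, on 1 of its 2 probes. These 3 are named because of their calls, and *IFT46*, *WDR35* and *IFT122* so that both directions are shown.

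Reported Hedgehog target genes lay on both sides of the mock arrays after each strand. After *miR-486-5p*, 6 of 16 in use were below the limit and 3 above (37.5% and 18.8%, beside 15.9% and 13.8% of all genes). Of 17 that limma tested it called 2 lower and 0 higher, beside 6.6% and 3.55% of all genes. After *miR-486-3p*, 8 of 17 were below and 8 above (47.1% each, beside 27.2% and 30.4%), with the same numbers called by limma. With median scaling, the latter split was 9 below and 4 above (52.9% and 23.5%, beside 41.7% and 17.8%). *ABCG2* and *FST* after both strands, and *FOXF1* after *miR-486-3p*, were above the limit but well above background on neither mock array, so the filter let them in only where they were high. The median differences of the list were −0.15 and −0.29.

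The 2 target genes that limma called lower after *miR-486-5p* fell further after *miR-486-3p*, the reverse of the order seen for *GLI1*. *FOXM1*, a transcription factor of the cell cycle, had signals of 1576 and 1655 on mock 1 and mock 2, 794 with *miR-486-5p* and 95.3 with *miR-486-3p*. Its differences were −0.90 (SE 0.0944, limma adjusted p = 0.0492) and −3.79. *SPP1*, which encodes the secreted protein osteopontin, had 375 and 351 in mock cells, 137 with *miR-486-5p* and 27.2 with *miR-486-3p*. Its differences were −1.27 (SE 0.101, limma adjusted p = 0.0476) and −3.44. The *miR-486-5p* calls of both genes were lost without a filter and with the authors' values. Their adjusted p over 8 settings ranged up to 0.0871 for *FOXM1* and 0.0857 for *SPP1*. Between the strands, *FOXM1* differed by −2.89 and *SPP1* by −2.17, both called by limma. The other target genes below the limit after *miR-486-5p* went both ways, and are named to show this. *SOX2* and *HSD11B2* were at −0.84 and −0.56 after *miR-486-5p*, and lower, at −1.14 and −0.75, after *miR-486-3p*. *BCL2* was at −0.85 and then −0.77, and *IGFBP6* at −0.81 and then 0.80. Many of these targets answer to other pathways as well, and the part of *GLI1* in their levels was not tested.

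*CCNE1*, which encodes cyclin E1, rose after *miR-486-3p* by 1.44 and was at −0.46 after *miR-486-5p*. *JUP*, a junction protein, *RAB34*, a GTPase needed for cilium formation, and *SOX2*, a stem cell transcription factor, fell after *miR-486-3p* by 1.32, 1.13 and 1.14. Of these, *SOX2* was at −0.84 after *miR-486-5p*, and *JUP* and *RAB34* were at −0.24 and 0.04.

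**Figure D4:**
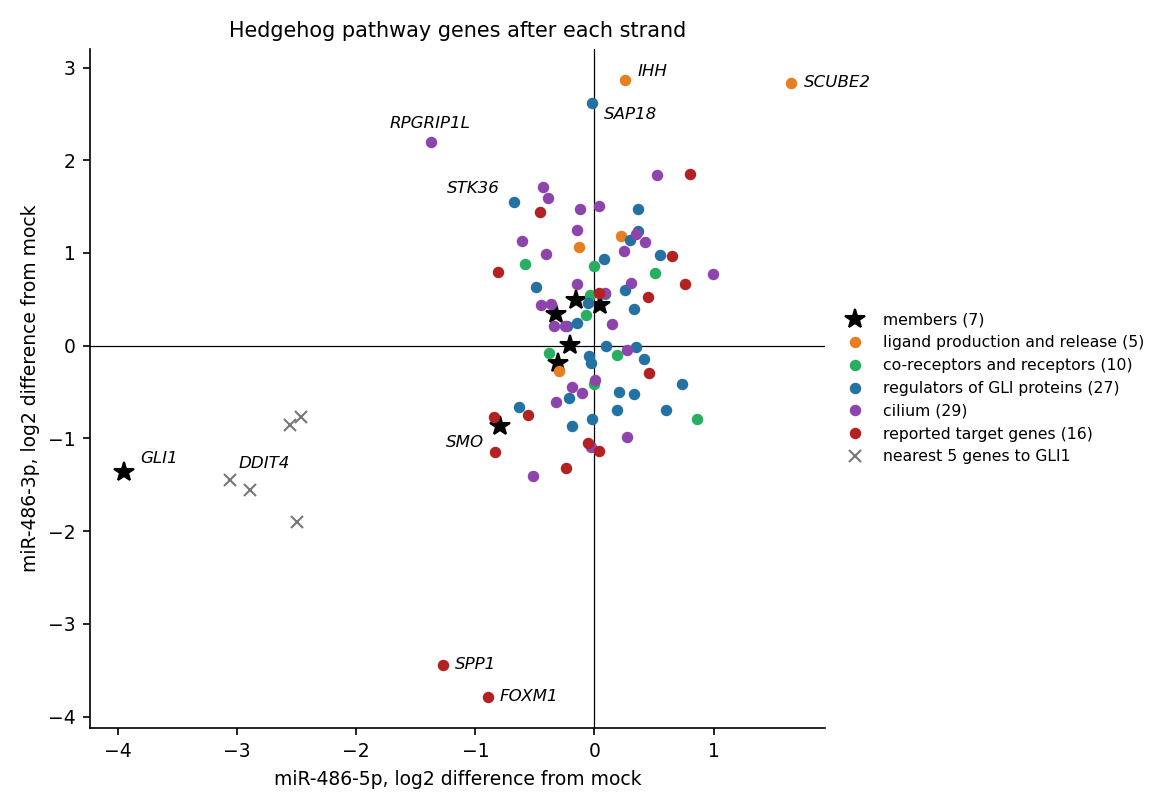
Log2 difference from mock after *miR-486-5p* (horizontal axis) and *miR-486-3p* (vertical axis) for pathway genes in use after both strands. The 2 axes share their mock arrays, so the lie of the cloud is not a measured relation. *GLI1* stands alone at the left at −3.95, while *IHH*, *SAP18* and *SCUBE2* lie highest and *FOXM1* and *SPP1* lowest after *miR-486-3p*.

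The genes nearest to *GLI1* by the pair of differences were not pathway genes. By Euclidean distance over both strands among 14368 other genes, they were *DDIT4* (0.90), *DCST1-AS1* (1.08), *DPYSL5* (1.48), *ITGA10* (1.55) and *RHPN1-AS1* (1.60). *DDIT4* had signals of 1797 and 1831 in mock cells, 200 with *miR-486-5p* and 542 with *miR-486-3p*, with differences of −3.06 and −1.45. *ITGA10*, an integrin subunit, was at −2.50 and −1.90. *DPYSL5*, a cytoskeletal regulator of neurons, was at −2.56 and −0.86. Its 2 probes in use disagreed after *miR-486-3p*, at −2.17 and 0.45, so its distance rests on their mean. The antisense transcripts *DCST1-AS1* and *RHPN1-AS1* were at −2.89 and −1.56, and at −2.46 and −0.77.

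The chromosome 12 neighbors of *GLI1* that were bright enough to show a fall did not share its pattern. Of the 5 genes before and 5 after it in the RefSeq order, 5 had a probe. After *miR-486-5p*, *INHBC* and *INHBE*, both inhibin subunits, were at 0.12 and 0.20, the tRNA synthetase *MARS1* at −0.03 and the stress factor *DDIT3* at 0.57. After *miR-486-3p*, the same genes were at −0.08, 0.31, −0.28 and −0.47. *ARHGAP9*, the next gene after *GLI1*, had signals of 3.04 on mock 1, 5.97 on mock 2 and 5.22 after *miR-486-5p*, and only the mock 2 signal was well above background. After *miR-486-3p* its signal was 66.8, which was well above background, and its log2 difference was 4.27. The probe was in use only through the *miR-486-3p* array, so no test is given.

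A list of 11 markers of lung epithelium and A549 cells was read to describe the cells, and it was only partly present. *KRT8*, *KRT18*, *KRT19*, *SFTPC*, *NAPSA* and *ALDH1A1* were well above background on all 4 arrays. *EPCAM* and *NKX2-1* were on 2 arrays, *AKR1B10* on 1, and *CDH1* and *SFTPB* on none. In mock cells *ALDH1A1* passed on only the second of its 2 probes, at a signal of 10.1 on each mock array. The summed signal of the list was 24448 and 24255 in mock cells, 16009 with *miR-486-5p* and 14847 with *miR-486-3p*, most of it on every array from *KRT18*. With *miR-486-5p* the list had a median difference of 0.03. limma called 2 of 9 lower and 3 higher, beside 6.6% and 3.55% of all genes. With *miR-486-3p* the median was −0.41, with 5 lower and 4 higher, beside 31.6% and 31.9%. Genes whose probes disagreed count both ways, *KRT8* after each strand and *ALDH1A1* after *miR-486-3p*. *NKX2-1* and *NAPSA* were called after neither strand. The *AKR1B10* call after *miR-486-5p* was on a probe not well above background on that array. Of 7 markers of blood, endothelial and stromal cells with a probe, 6 were well above background on each mock array and 5 on each transfected array, at a summed signal of 123 and 120 in mock cells, 138 with *miR-486-5p* and 148 with *miR-486-3p*. *PECAM1* was on none. *DCN* was the only one past the limit, at 1.89 after *miR-486-3p*. The part of these shifts in the pathway values was not tested.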

How the data were processed

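Total RNA of A549 cells was measured on 1-color Agilent arrays. The authors deposited the intensity of each spot from Agilent Feature Extraction (version 12.1.1.1), already background-corrected, and a table of log2 values whose normalization is not given in the sources used here. Its medians were 2.76 on all 4 arrays, 14.1% to 14.6% of its values were 0, and its correlation with the scanner signal was above 0.999 on each array, so its scale and direction were settled.

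Here log2 signals were scaled by the 75th percentile of each array. Outlier spots (50 to 72 an array) were removed and spots of a probe averaged. Of 33080 probes with a RefSeq accession, 31104 matched a gene in RefSeq (GRCh38.p14, names and promoters alone). The difference of a gene averages its probes in use, with groups not well above background set to the lowest signal well above it. limma 3.58.1 (R 4.3.3) was fitted to 33502 probes of all 4 arrays with Benjamini-Hochberg adjustment at 0.05 (residual df 1, prior df 1.75, prior SD 0.0893), and a gene was called if any of its probes was. The fit was tested on simulated data. Figures used matplotlib 3.10.9.

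The members and gene lists were chosen with earlier results of these data known. Named were all members, up to 6 genes of each list past 0.5 and well above background on all 4 arrays, the 10 RefSeq neighbors of *GLI1* and its 5 nearest genes. A few listed genes that this rule takes are counted but not reported here. Alternatives covered the mock arrays, scaling, filter, probe choice, values, background correction, limit and test.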

Additional observations from a re-analysis of the deposited data

Results flagged for a closer look

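The strands differed from each other, by limma across all 4 arrays with Benjamini-Hochberg adjustment, in 22 genes, with every tested probe of the gene called in the same direction. The 22 include *ARHGAP9*, which passed the filter only through the array on which it was high, so its call is not read as a test. Only members other than *GLI1*, the 23 listed genes taken by size and the chromosome neighbors of *GLI1* were considered. The listed genes were taken for a large difference from mock after either strand on these same arrays, which favors a difference between the strands. Their calls are therefore a description and not a test. *GLI1* and the genes nearest to it were chosen on these differences, and they and the genes named for their calls or values were left out. The difference is *miR-486-3p* minus *miR-486-5p* on the log2 scale, and its spread comes from the mock arrays alone. Of the members considered, *GLI3* differed by 0.66. Of the ligand genes, *IHH* differed by 2.61 and *HHAT* by 1.19. Of the receptor genes, *CDON* differed by 0.59 and *MOSMO* by 0.87. Of the GLI regulators, *SAP18* differed by 2.64, *STK36* by 2.23, *BTRC* by 1.11, *PRKAR1A* by 0.87 and *KIF7* by 0.85.

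Of the cilium genes, *IFT22* differed by 2.15, *IFT172* by 1.98, *IFT43* by 1.48, *IFT88* by 1.40 and *IFT20* by 1.32. Of the target genes, *CCNE1* differed by 1.90, *JUP* by −1.08, *RAB34* by −1.17, *SPP1* by −2.17 and *FOXM1* by −2.89. Of the neighbors of *GLI1*, *DDIT3* differed by −1.04. *ARHGAP9* had a measured difference of 3.85, but it was not well above background after *miR-486-5p*. Its probe was in use only through the *miR-486-3p* array. Over all genes, limma called 27.3% lower and 26.6% higher in this comparison, shares that are not a like comparison for genes taken by size.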

How the results depend on the processing

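No paired analysis was possible because there was only 1 array of either strand. limma needs both mock arrays for its only residual degree of freedom, so its calls could not be recomputed without 1 of them. *GLI1* kept its direction in all comparisons and settings run, although the choices of filter and probe could not change its value. Without each mock array in turn its difference ranged from −4.11 to −3.79 after *miR-486-5p* and from −1.52 to −1.20 after *miR-486-3p*. Normal-exponential background correction gave −1.66 and −0.76 and a difference of the strands of 0.90, and median scaling gave −1.73 after *miR-486-3p* and 2.30 between the strands. The cause was not tested. For other named genes, 563 values moved by less than the mock SD, 241 by more, and 1 past the limit reversed, *GPR161* after *miR-486-5p*, at 0.12 on its brightest probe in place of −0.59. With this one, 32 values had the opposite sign under some setting, the others for genes within the limit of 0.5, among them *PTCH1* (−0.27 to 0.04), *HHIP* (−0.70 to 0.08) and *SUFU* (−0.76 to 0.13) after *miR-486-5p* and *GLI3* (−0.03 to 0.39) after *miR-486-3p*.

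Of the pathway genes, normal-exponential correction left 5 lower and 3 higher after *miR-486-5p* and 14 lower after *miR-486-3p*. A limit of 1 left, by construction, 3 lower and 1 higher, and 9 lower and 25 higher. Where every array had to be well above background, 3 ligand genes were higher after *miR-486-3p*. limma's counts after *miR-486-5p*, 6 lower and 2 higher with the members included, were the least stable. They became 16 and 5 with median scaling, 19 and 13 on probes above background on all 4 arrays, 24 and 26 with normal-exponential correction and 25 and 22 with an intensity trend. They were 0 and 0 without a filter, with the authors' values and in the methods' t-test after Benjamini-Hochberg. The calls over all genes after *miR-486-5p* moved in the same way. From 1100 lower and 591 higher, they became 4280 and 4314 with normal-exponential correction and 4167 and 3694 with an intensity trend. They were also 0 and 0 over all genes without a filter, with the authors' values and in this t-test. At an unadjusted limma p under 0.05, 51 of 98 pathway genes passed, beside 7931 of 16662 genes over all. Without a filter 49 passed, beside 9221 of 22439, and with the authors' values 51, beside 7998 of 16662. In the methods' t-test before adjustment, 15 lower and 11 higher passed, beside 4346 genes over all in either direction. After *miR-486-3p* this t-test called 0 and 0 after adjustment, and 15 lower and 30 higher before. Over all genes it called 0 after adjustment and 7035 in either direction before. Between the strands, limma called 29 lower with median scaling and 12 without a filter, in place of 19. Of the alternative counts, 86 stayed within 1.5 times the reported count and 26 did not. Signals near the lowest well above background, such as those of *SHH*, *HHIP* and the dimmer *PTCH1* probe, are limited by signal over background.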
